A study of Rattus norvegicus with 15 samples.

Results

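Vomeronasal receptors are the chemoreceptors of the vomeronasal organ, a blind-ended tube in the nasal septum that detects pheromones and other chemical signals between animals. Their transcripts were followed here in the main olfactory epithelium, the odorant-detecting lining at the back of the nasal cavity. Probes were taken as vomeronasal receptor probes when the gene name on the array began with V1r, V2r, Vom1r or Vom2r, or when the description held both "vomeronasal" and "receptor". This rule used no measured value and found 20 probes for 20 genes, of 41012 probes and 35581 gene names on the array. By their annotation 13 were receptors of the V1R family and 7 of the V2R family.

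V1R and V2R receptors are G protein-coupled receptors made by separate layers of vomeronasal neurons. V1Rs are expressed in apical neurons together with the G protein subunit Gnai2. V2Rs, which have a long extracellular domain related to that of the calcium-sensing receptor, are expressed in basal neurons together with Gnao1. Both kinds of neuron use the channel Trpc2 to turn receptor activation into an electrical signal, whereas neurons of the main olfactory epithelium carry olfactory receptors (ORs) and signal through Gnal, Adcy3 and Cnga2.

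The tissue came from naive Brown Norway rats aged 6 weeks, 4 males (rats 1, 2, 5 and 6) and 4 females (rats 3, 4, 7 and 8), and carried no transgene or treatment. The epithelium of each nostril was measured on an array of its own, which gave 7 arrays from males and 8 from females. Male 1 was represented by nostril A alone, since 1 RNA sample had not passed the quality control of the study. By the study's methods that sample was the left one of a male supplied by Elevage Janvier, and male 1 is the only rat with a single array. The study bought males and females from Elevage Janvier and also from Charles River Laboratories. The labels give neither side nor supplier for any array, so neither was compared. Differences among rats of the same sex can include those of supplier and of array slide. Processed intensities were divided by the median of their array, which ran from 57.4 to 83.4 intensity units. Levels are given as log2 of that quotient, with a floor of -3.32, and levels are compared between arrays within a probe. The summed signals of marker lists are the exception, since they add different probes and follow the brightest of them. A probe counted as detected on an array when the scanner software called its spot well above background, and the lowest signal so called was 10.01 to 14.5 units depending on the array.

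All 20 probes were 60 bases long, and their annotated positions on build rn3 lay mostly in clusters. Of the V1R probes, 8 were on chromosome 4, and 7 of these lay between positions 124159652 and 124759660. Another 3 were on chromosome 1 and 1 each was on chromosomes 7 and 8. Of the V2R probes, 6 were on chromosome 14 between positions 56975 and 1300707, and the remaining probe was on sequence not assigned to a chromosome. Whether a probe lies in an exon or an untranslated region is not part of the array annotation. A RefSeq symbol of assembly GRCr8 was found for 13 of the 20.

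The probe sequences show how alike the probes of different receptors are. Whether a transcript binds the probe of another receptor was not tested. For 14 of the 20 probes, the nearest other vomeronasal-type receptor probe shared 25 to 28 bases of 60 at the best ungapped alignment. For the other 6 it shared 38 to 42. The pair Vnr1 and V1rb9, both V1Rs of the chromosome 4 cluster, is shown with the 41 bases identical between them in capitals.
Vnr1: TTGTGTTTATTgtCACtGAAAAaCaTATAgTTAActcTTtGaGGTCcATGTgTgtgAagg
V1rb9: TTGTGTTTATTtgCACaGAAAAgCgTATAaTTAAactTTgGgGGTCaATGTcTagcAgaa
The V2R pair LOC689072 (RefSeq Vom2r72) and LOC689403 (Vom2r65), both on chromosome 14, is shown in the same way, again with 41 identical bases in capitals.
LOC689072: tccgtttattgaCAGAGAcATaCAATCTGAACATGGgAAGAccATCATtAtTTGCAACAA
LOC689403: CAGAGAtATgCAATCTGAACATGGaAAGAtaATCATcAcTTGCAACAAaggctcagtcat
The remaining sequences are those of the probes with a signal above background that could be printed here, with no part marked. TC553353 and TC533179 are given by their first 30 bases. TC533179 is a V2R-type probe outside the selection rule and is described further on.
LOC685945: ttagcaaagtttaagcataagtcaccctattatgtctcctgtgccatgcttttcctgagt
LOC689670: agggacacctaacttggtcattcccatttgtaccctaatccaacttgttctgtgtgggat
LOC689435: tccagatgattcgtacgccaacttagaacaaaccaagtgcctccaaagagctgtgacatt
TC553353: gtgtaactacgttttggtgtttatcaaaac
TC533179: ttctccatcttggcttctagtgcagggttg
The G and C content of the 20 probes had a median of 37.5% and ranged from 35% to 45%. All probes of the array had a median of 43.3%, with 35% and 55% at the 5th and 95th percentiles.

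Most vomeronasal receptor probes gave no signal well above background in the main olfactory epithelium. With the study's classes, 1 of the 20 probes was expressed (detected on at least 11 of 15 arrays), 4 were weakly expressed (1 to 10 arrays) and 15 (75%) were detected on no array. The expressed probe, TC553353, matches a vomeronasal receptor over only 6% of the protein. Whether its signal comes from such a receptor was not tested. Over all probes of the array 65.1% were expressed and 23.8% were detected on no array. Of the 1138 OR probes 734 (64.5%) were expressed and 218 (19.2%) were detected on no array. The count depends on the call. With the looser flag for a positive and significant signal, 5 of the 20 (25%) were detected on no array, against 7.77% of all probes, and 15 were detected at least once, 2 of them on 11 or more arrays. Absence of a call gives a limit of detection only, because the array cannot separate a few expressing cells from none. In these bulk samples, fewer cells of a type and less RNA per cell cannot be told apart either.

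**Figure D1:**
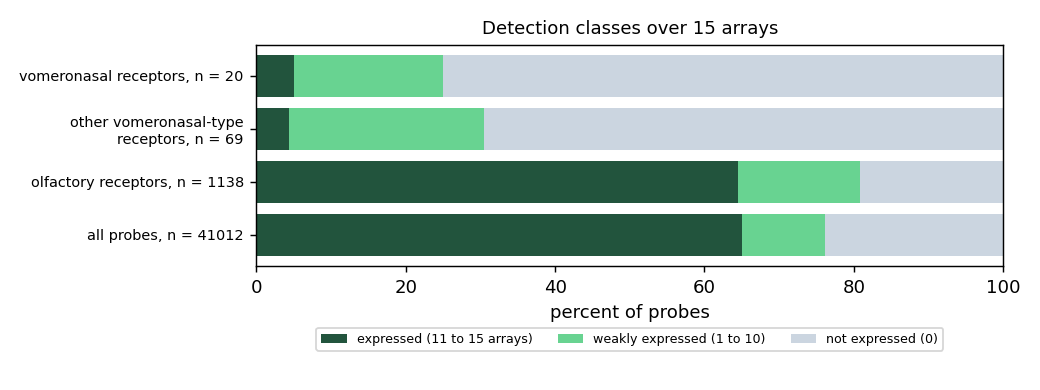
Share of probes (horizontal axis, percent) in each detection class over the 15 arrays, for vomeronasal receptors, other vomeronasal-type receptors, olfactory receptors and all probes. The dark part, expressed probes, covers 5% of the vomeronasal receptors and 64.5% of the olfactory receptors. The 5% is TC553353 alone, a partial match to a receptor over 6% of the protein.

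**Figure D2:**
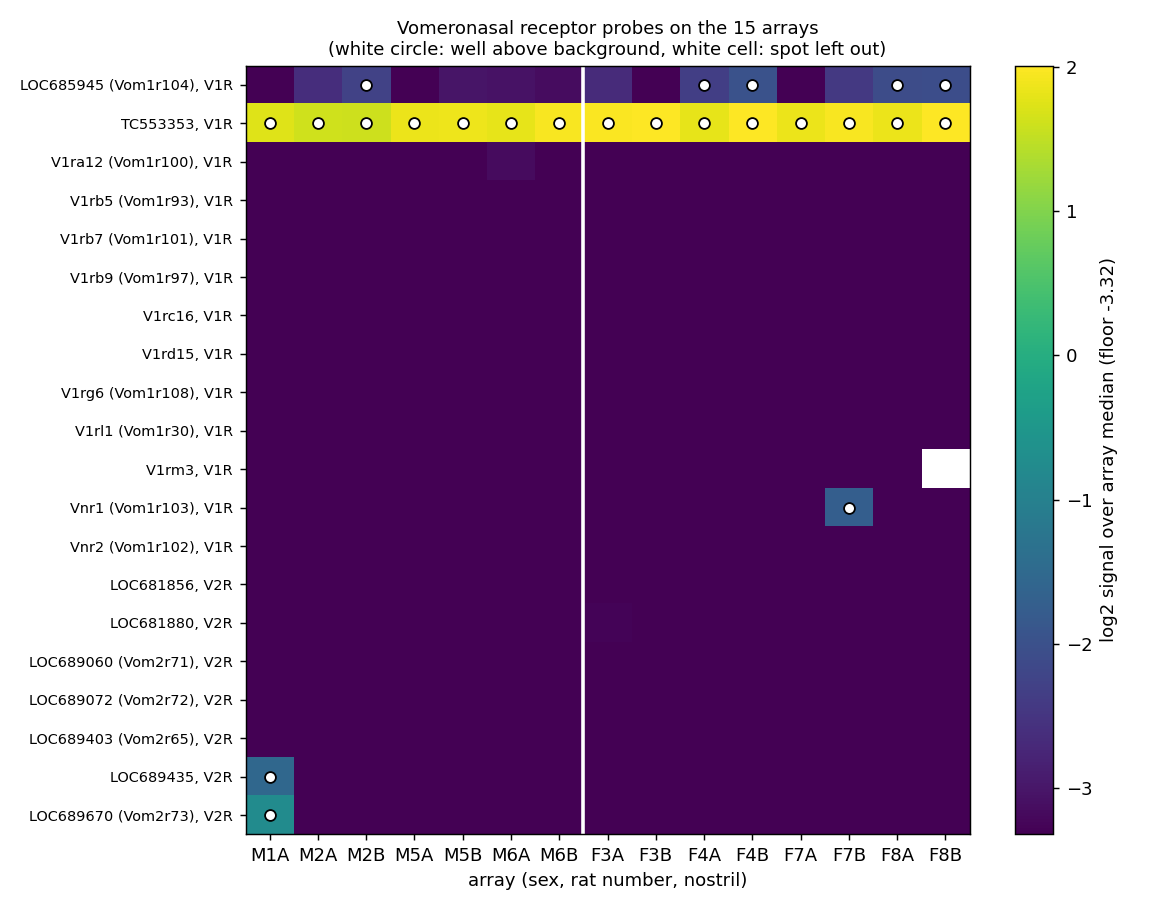
Level of each of the 20 vomeronasal receptor probes (rows) on the 15 arrays (columns, M male, F female, then rat number and nostril) as log2 signal over the array median, with a circle where the spot was well above background. TC553353 is the only row with a circle on all 15 arrays, and the circles of LOC689435 and LOC689670 stand in the first column, male 1 nostril A. The white cell of V1rm3 is a spot that was left out.

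The 10 V1R probes detected on no array were Vnr2, V1ra12, V1rb5, V1rb7, V1rb9, V1rc16, V1rd15, V1rg6, V1rl1 and V1rm3. Of these, 8 stayed at the floor on all 15 arrays. V1ra12 rose above it on male 6 nostril A alone (-3.16) and V1rm3 on male 1 nostril A alone (-3.31), and neither spot was well above background. V1rm3 had 1 spot, on female 8 nostril B, that the software called well above background but also marked as an outlier, and that spot was left out.

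Vnr1 (Vom1r103) was detected on 1 array, female 7 nostril B, where its signal was 21.1 units (level -1.73). On the other nostril of the same rat it was 2.4 units, and on the remaining 13 arrays it ran from -6.13 to 6.03 units. The detection in female 7 was therefore not shared by both nostrils. Over all probes 4.16% were detected on exactly 1 array.

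LOC685945 (Vom1r104, similar to the V1R a13 receptor) was the only weakly expressed V1R of the rule detected on more than 1 array. It was well above background on 5 arrays, male 2 nostril B, both nostrils of female 4 and both nostrils of female 8. Signals in female 4 were 16.3 and 21.2 units and in female 8 17.6 and 17.1 units. In male 2 they were 11.5 units in nostril A and 14.8 units in nostril B. Male 1 had 4.94 units, male 5 had 0.266 and 7.58, and male 6 had 6.99 and 6.93. Female 3 had 10.8 and 6.45 units and female 7 had 5.18 and 12.9. In these units, not divided by the array median, rats 4 and 8 were the highest, and the sexes overlapped. The array medians were 82.7 and 83.4 units in female 4 and 70.9 on male 2 nostril B. Detected on fewer than 7 arrays, the probe did not enter the tests.

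TC553353 was the only probe of the rule that was expressed, and it was detected on all 15 arrays. It is an assembled transcript whose annotation gives a partial match, over 6% of the protein, to the vomeronasal receptor V1RH15. The annotation places the probe on chromosome 8 of build rn3, from 57097212 to 57097271 in reverse order, away from the V1R clusters. The nearest gene probes on either side were those of Acat1, a mitochondrial acetyl-CoA acetyltransferase, ending at 57075776, and of Cul5, a ubiquitin ligase scaffold, starting at 57109094. In between lay probes for the expressed sequence tags AI029426, starting at 57099038, and BF551475, starting at 57099328, and both were detected on all 15 arrays. In RefSeq assembly GRCr8, 1 gene, a pseudogene, lies between Acat1 and Cul5, and 0 genes named Vom1r lie there. The probe shared at most 26 of 60 bases with any other vomeronasal-type receptor probe. For 14 of the 20 probes of the rule this number was 25 to 28, so it does not set TC553353 apart. Whether its signal comes from a vomeronasal receptor was not tested.

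TC553353 had a level of 1.74 in male 1. Male 2 had 1.62 in nostril A and 1.61 in nostril B, male 5 had 1.86 and 1.87, and male 6 had 1.82 and 1.96. Female 3 had 1.98 and 1.99, female 4 had 1.82 and 1.99, female 7 had 1.86 and 1.96, and female 8 had 1.85 and 2.01. Single arrays of the sexes overlapped, whereas every female rat mean (1.90 to 1.98) lay above every male rat mean (1.61 to 1.89). The same held for 8.82% of all probes tested. The mean was 1.93 ± 0.04 (SD, n = 4) in females and 1.78 ± 0.13 (SD, n = 4) in males. Markers of other cells lay apart between the sexes as well, though none passed the test. Sustentacular cell probes were higher in females for 5 of 5 (median difference 0.31), main olfactory neuron probes for 12 of 14 (0.12) and red blood cell probes for 0 of 2 (-1.67). Vomeronasal neuron probes were higher in females for 1 of 7 (-0.13), and those under older gene names for 3 of 3 (0.19). For immature olfactory neurons it was 2 of 4 (-0.009). The part of these cells in the difference of TC553353 was not tested.

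**Figure D3:**
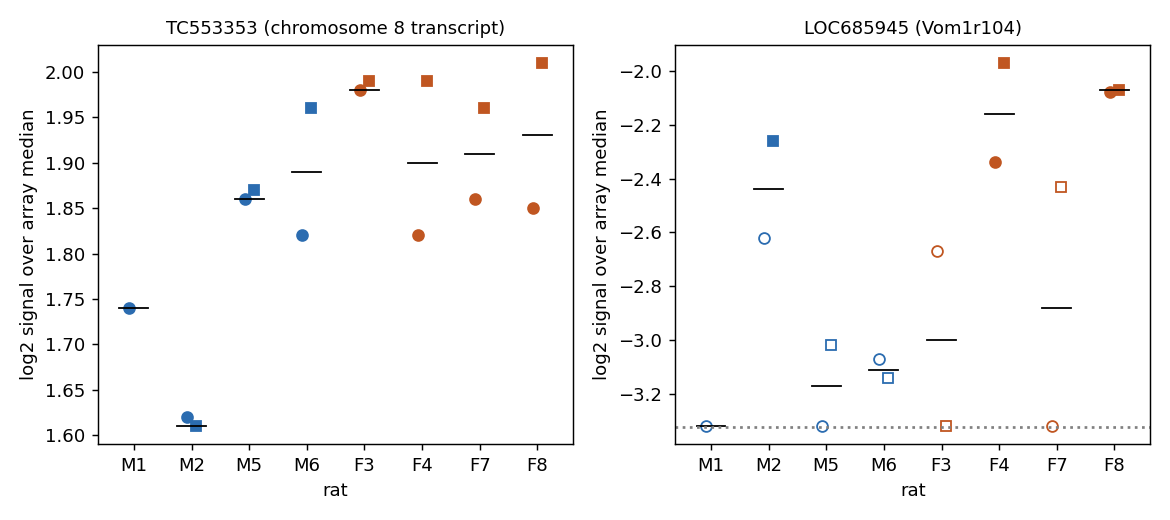
Level of TC553353 (left) and LOC685945 (right) in each rat (M male, F female, with the rat number), as log2 signal over the array median on separate scales. Circles are nostril A, squares nostril B, filled symbols were well above background, short lines are rat means and the dotted line is the floor. In the left panel all female rat means lie above all male rat means. In the right panel filled symbols occur in male 2 and females 4 and 8.

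This difference between the sexes did not pass the test. The nostrils of a rat were averaged and limma was fitted over all 27625 probes detected on at least 7 arrays, among which TC553353 was the only probe taken by the rule. It was higher in females by 0.15 on the log2 scale (SE 0.08), with a Benjamini-Hochberg adjusted p of 0.349, against a median difference of 0.01 over all probes tested. At a false discovery rate of 1%, 0.0434% of all probes tested differed between the sexes (12 probes), and 0 vomeronasal receptor probes did. Its unadjusted limma p was 0.0797, and the simple test of the methods did not call it after adjustment. The difference was 0.10 without male 2 and 0.32 with slide as a block (adjusted p = 0.0657 in limma). In that fit it rests on the only slide that held both sexes, where female 3 nostril A had 1.98 and males 1 and 2 had 1.61 to 1.74.

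TC553353 did not pass the test among rats of the same sex either (limma F = 2.20, adjusted p = 0.238), where 2.79% of all probes tested passed. Nostril B was 0.08 above nostril A (SE 0.04, limma adjusted p = 0.781, 7 rats), and 0% of all probes tested passed in that comparison. In limma 1623 of 27574 probes had an unadjusted p under 0.05 there.

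Among the V2R probes, LOC681856, LOC681880, LOC689060, LOC689072 and LOC689403 were detected on no array. The first and the last 3 of these were at the floor on all 15 arrays. LOC681880 reached 7.15 units at most, on female 3 nostril A, below the limit of detection. With the looser flag for a positive and significant signal, LOC681880 was called on 9 arrays, LOC689060 on 5 and LOC681856 on 1, so that signal of V2R probes was not confined to male 1 under that call.

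The other V2R probes, LOC689670 (Vom2r73) and LOC689435, were detected on the same array and on no other. On male 1 nostril A the signal of LOC689670 was 40.6 units (level -0.74), and on the other 14 arrays it lay between -2.81 and 2.54 units. LOC689435 had 23.4 units on male 1 nostril A (level -1.54) and -2.18 to 0.84 units elsewhere. Male 1 therefore stood apart from every other rat for both, and without it all 7 V2R probes had no spot well above background. Over the whole array, 9.09% of the probes detected on exactly 1 array were detected on male 1 nostril A. Male 1 has no second array to set against it.

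The array carried other probes for the same receptor families that the rule did not take, mostly because their descriptions speak of pheromone receptors. They were gathered after the data had been seen, and comprised 69 probes, 60 of them of V2R type by their annotation. Of the 69, 3 were expressed, 18 weakly expressed and 48 (69.6%) detected on no array. Together with the 7 V2R probes of the rule this gave 67 V2R-type probes. Male 1 nostril A detected 14 of the 67 and each of the other arrays 3 to 7. On male 1 nostril A alone 8 were detected, and no other array had more than 1 such probe. Over all probes, male 1 nostril A detected 27767 and the other arrays 26228 to 28730, and 155 were detected there alone against 56 to 231 on the others. Of the OR probes it detected 796 and the others 698 to 851.

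**Figure D4:**
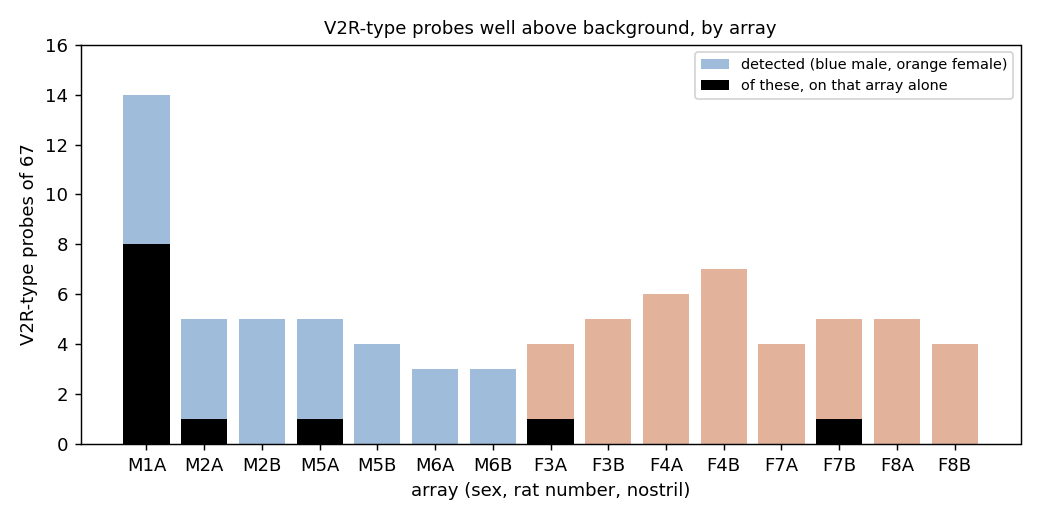
Number of the 67 V2R-type probes detected on each array (pale bars, blue male, orange female, array named by sex, rat number and nostril) and, in black, those detected on that array and no other. Male 1 nostril A has 14 and 8, and the other arrays have 3 to 7 and 0 or 1.

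Of the 67 V2R-type probes 20 were detected somewhere, and 8 of these entered through male 1 nostril A alone, where they had to be highest. The other 12 were detected on at least 1 of the other 14 arrays, and 4 of the 12 (TC533179, RGD1306812, Casrl1 and LOC286983) had their highest level on male 1 nostril A. Taken the same way, 7% of all probes (2175 of 31084) and 8.38% of OR probes were highest there. With no condition on detection, 10 of the 67 were more than 1 log2 unit higher on male 1 nostril A than on every other array, as were 0.305% of all probes. These counts describe a group gathered with the data in view and were not tested. Besides LOC689670 and LOC689435 these were TC533179, LOC500312 (Vom2r50), RGD1562697 (Vom2r6), RGD1306812 (Vom2r45), LOC297590 (Vom2r52), LOC286981 (Vom2r32), LOC286986 (Vom2r75) and LOC292498 (Vom2r-ps24). The probes of RGD1562697 and LOC292498 share 38 bases, shown in capitals, and whether one transcript can give a signal on both was not tested.
RGD1562697: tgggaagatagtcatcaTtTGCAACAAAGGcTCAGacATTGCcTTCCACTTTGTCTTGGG
LOC292498: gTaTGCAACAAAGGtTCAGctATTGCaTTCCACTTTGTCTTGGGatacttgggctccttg

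Of the 69 other probes 4 were detected on at least 7 arrays and tested, and of these 0 passed between the sexes, 0 between nostrils and 1, TC533179, among rats of the same sex. TC533179, an assembled transcript with a partial match over 40% of a V2r2 protein, had a level of 3.50 on male 1 nostril A and -1.58 to -0.50 on the other 14 arrays. The gap of 3.99 log2 units to the next array was the widest among 31239 probes detected at least once. It was called among rats of the same sex (limma F = 79.9, adjusted p = 0.000103), and not without male 1 (adjusted p = 0.124). Male 1 has a single array and adds nothing to the error of this test, which sets that array against the spread between nostrils of other rats, for a probe gathered with the data in view. The same limit holds for the other tests among rats given for male 1. On the slide that male 1 shared with male 2 and female 3, the other 3 arrays had -0.86, -0.83 and -0.63, and with slide as a block the adjusted p was 0.00558. RGD1306812 had 0.60 on male 1 nostril A and -3.07 to -1.29 elsewhere. Casrl1 (Vom2r44) had 0.02 there and -2.19 to -0.89 elsewhere, and its test among rats gave a limma adjusted p of 0.0273. LOC286983 (Vom2r40) was highest on the same array (-0.73), with -0.86 on female 8 nostril A, and had a limma adjusted p of 0.0382. The other tested probe, RGD1561380 (Vom2r-ps60), had -1.33 on male 1 nostril A, within the range of the others (-2.76 to -0.37).

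**Figure D5:**
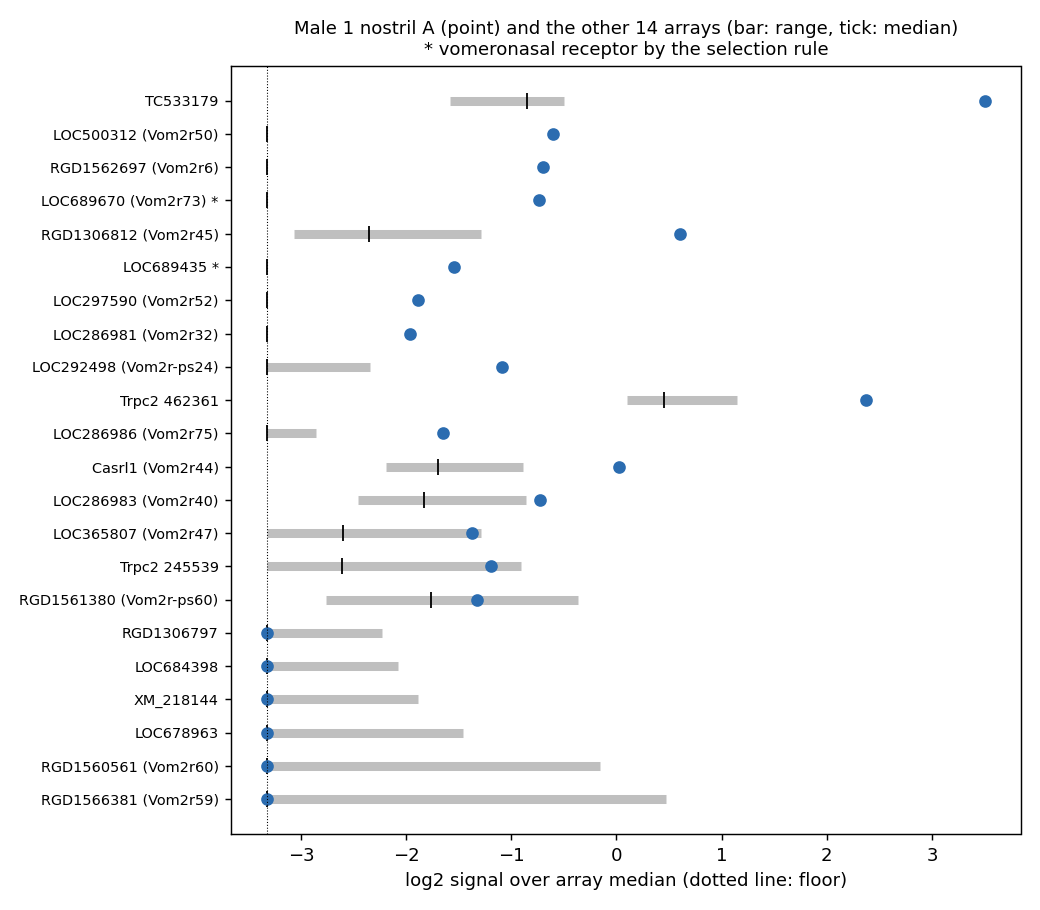
Level on male 1 nostril A (point) and range over the other 14 arrays (bar, with the median as a tick) for the 20 V2R-type probes detected at least once and both Trpc2 probes, as log2 signal over the array median, ordered by the gap between the point and the end of the bar. An asterisk marks LOC689670 and LOC689435, and the dotted line is the floor. For TC533179 the point lies at 3.50 and the bar ends at -0.50.

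The V1R probes are set beside these values without a test of the difference. None of the 3 V1R probes of the rule detected at least once was highest on male 1 nostril A, where LOC685945 and Vnr1 were at the floor and TC553353 had 1.74, within the range of the other arrays (1.61 to 2.01). Outside the rule 1 of the 69 probes was annotated as V1R type, LOC266771 (Vom1r90), and it was detected on male 1 nostril A and on male 5 nostril B. Its signal was 13.4 units (level -2.34) on the first and 18.1 units (level -1.76) on the second, and it was at the floor on the other 13 arrays.

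Markers of vomeronasal neurons were examined beside these values. One Trpc2 probe had 2.37 on male 1 nostril A and 0.10 to 1.15 on the other arrays, and was called among rats (limma adjusted p = 0.00225), though not without male 1 (adjusted p = 0.0837) or with slide as a block (adjusted p = 0.0185). The fit with the block compares only rats of a sex that share a slide, so male 1 is set against male 2 alone. The F of this Trpc2 probe, 44.4 with the block and 25.2 without, is thus over different contrasts. Its unadjusted limma p was 5.32e-06 with the block and 1.39e-05 without. The call was lost in the adjustment over all probes. A second Trpc2 probe was detected on 6 arrays and had -1.19 on male 1 nostril A, within the range of the others (-3.32 to -0.91). Gnai2, Gng8, Adcy2, Bcl11b and Meis2 were expressed on all 15 arrays and none was highest on male 1. The summed signal of these genes and Trpc2, in multiples of the array median, was 518 on male 1 nostril A and 393 to 564 on the others. Gng8, which immature olfactory neurons also express, was the brightest probe of this sum and sets most of it. Of the 8 probes of this list, 1, the brighter Trpc2 probe, was highest on male 1. Gnao1, Ano1 and RT1-M10 were found under older names. Both probes of Gnao1 and the probe of Ano1 were detected on all 15 arrays, the probe of RT1-M10, a class I molecule of V2R neurons, was detected on none, and their sum was 53.8 on male 1 against 48.1 to 66.1 on the others. A probe of Gnao1 passed the test among rats (limma adjusted p = 0.00380), and also without male 1 (adjusted p = 0.00341). It had 3.91 in male 1 and 3.43 to 4.10 over the other arrays. With slide as a block, where only rats sharing a slide are compared, it did not pass (adjusted p = 0.467). The part of vomeronasal tissue in the values of male 1 was not tested.

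Secreted products of vomeronasal and nasal glands also differed widely between arrays. The probe for vomeronasal secretory protein 2, also called lipocalin-4 (LOC687446), had 7.57 on male 1 nostril A, 7.19 on male 5 nostril B and -3.32 to 4.22 on the other arrays. Of the 67 V2R-type probes 4 were detected on male 5 nostril B, within the 3 to 7 of the arrays other than male 1. The probe LOC690507, annotated on the array as similar to vomeromodulin and listed in RefSeq as Rplp1l3 with Bpifb9 among its synonyms, was 1.49 on male 1 nostril A and reached 10.09 on female 7 nostril B. Neither passed a test in limma (adjusted p of 0.253 and 0.181 between the sexes).

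The labelled tissue carried its defining markers. Of 15 probes for genes of main olfactory neurons (Omp, Gnal, Adcy3, Cnga2, Cnga4, Cngb1, Rtp1, Rtp2, Ric8b, Stoml3, Lhx2 and Ebf1) 14 were expressed, the exception being Rtp2. All probes for immature neurons (Gap43, Gng8, Tubb3 and Stmn2), sustentacular cells (Cyp1a2, Cyp2g1, Ugt2a1 and Gstm1) and ciliated respiratory cells (Foxj1 and Tekt1) were expressed, and none of these lists had a probe past the sex, rat or nostril test. Of the Grueneberg ganglion genes, Gucy2g and Pde2a were expressed and Cnga3 was detected on no array. The red blood cell genes Hbb and Alas2 both passed the test among rats, but not with slide as a block (limma adjusted p of 0.0779 and 0.0529). Their summed signal was 727 array medians on male 1 nostril A and 58.0 to 1384 on the others. Of the muscle genes, Acta1 and Ckm were detected on 2 arrays each and Myh4 on none, and their sum was highest on female 7 nostril A (11.5).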

How the data were processed

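Cy3-labeled RNA of each epithelium was hybridized to a 1-colour Agilent 44K rat array. The authors deposited the intensity of each spot, extracted with Feature Extraction 9.5.1.1 per the file headers, with local background removed and no scaling between arrays. Flags for well above background and for outlier spots are other columns of the deposited files. The deposited ratio table equals signal over array median over probe median (100% of values within 2% for 19037 probes brighter than the array median) and served as an alternative. Its columns have medians of 0.920 to 0.986.

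Outlier spots (61 to 175 per array) were left out, spots of a probe were averaged, and signals were divided by the array median, floored at 0.1 and log2-transformed. Between 26228 and 28730 probes were detected per array. The number of arrays limits the precision. The sexes were compared on rat means, rats of the same sex by an F-test with the difference between nostrils as error, and nostrils with rat as a block, all with limma 3.58.1 (eBayes with trend) in R 4.3.3. Tests were two-sided and p-values were adjusted by Benjamini-Hochberg, with 1% as the threshold. The replicates are separate animals. Nostrils A and B pair within a rat by the labels, and their deviations from the other rats of the sex correlated by 0.18 to 0.66. Python 3.11.15 was used for the rest.

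Genes were named when past a test, when detected on all 15 arrays, among the 5 smallest p-values or widest ranges, when detected in 1 sex only on 3 or more arrays, or when listed as markers. The remaining receptor probes of the rule were named so that each is accounted for, and those gathered besides are given mostly by counts. The receptors, lists and tests were chosen with earlier results of these data known. Gene names came from the array annotation and RefSeq assembly GRCr8. Alternatives covered detection, scaling, background correction, floor, filter, slide, left-out spots and left-out rats. Of the markers, Tfap2e, Calr4, RT1-M1, RT1-M9, Gng13, Ano2, Cyp2a3, Dnai1 and Hba-a1 were not matched by name.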

Additional observations from a re-analysis of the deposited data

Results flagged for a closer look

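A rat was marked for a closer look when its mean stood far from the other 3 rats of its sex (a gap to its neighbour, over the whole range, above Dixon's 95% critical value). Receptor probes detected on at least 1 array, both Trpc2 probes and the gland products were examined. Of 47 groups of 4 rats with any spread among these, 23 had such a rat, and chance gives about 1 in 20. In most of these groups the other 3 rats were all at the floor of -3.32, so that any value above the floor is marked.

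Male 1 was the rat in 11 of the 23, among them the 8 V2R-type probes detected on male 1 nostril A alone. The other rats are means of both nostrils, whereas male 1 has 1 array. Its levels were -0.74 for LOC689670, -1.54 for LOC689435, 3.50 for TC533179, 0.02 for Casrl1, -1.96 for LOC286981, -1.65 for LOC286986, -1.09 for LOC292498, -1.89 for LOC297590, -0.60 for LOC500312, -0.70 for RGD1562697 and 2.37 for the brighter Trpc2 probe. The other males lay between -0.94 and -0.61 for TC533179, between -1.90 and -1.62 for Casrl1 and between 0.21 and 0.40 for Trpc2.

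Female 7 was the rat in 5 groups, with -2.53 for Vnr1, -2.83 for LOC292498, -2.90 for LOC678963, -1.43 for RGD1566381 and -2.48 for XM_218144. Male 5 was the rat in 4, with -2.70 for LOC684398, -2.60 for XM_218144, -2.54 for XM_223727 and -2.57 for XM_229376. Single groups marked male 2 for LOC678963 (-2.39), female 3 for RGD1306797 (-2.77) and female 8 for LOC286986 (-3.09). For each of these the other 3 rats of the sex were at -3.32.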

How the results depend on the processing

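Of 105 alternative values, 97 kept their direction and their side of the threshold or stayed within the margin set for counts, and 8 moved. A reversal could be recorded only for the sex difference of TC553353, and 0 occurred. Many of the values overlap. With dim probes filtered out, TC553353 was the only probe of the rule tested, and its difference is also the median. The number of expressed vomeronasal receptor probes was 1 under every alternative except with a positive and significant signal as the call, which gave 2, the added probe being LOC685945, positive on 14 arrays. The counts of vomeronasal receptor probes past 1% between the sexes and between nostrils stayed at 0 under every alternative run. In the fits as reported TC553353 had an unadjusted limma p of 0.0797 between the sexes and 0.0897 between nostrils. The methods' t-test gave an adjusted value of 0.418 for the sexes. Among rats of the same sex the count was 0 except with no filter on dim probes, which gave 2 (LOC689670 and LOC689435). Both are at the floor on the other 14 arrays, where nostrils then have no spread, so these calls restate their detection on male 1. The median difference between the sexes, 0.155 for the only tested probe, was 0.321 with slide as a block and 0.0 with no filter, where 20 probes mostly at the floor entered. Leaving out each rat in turn gave medians from 0.1 to 0.192 and counts of expressed probes and of calls that did not change (0 to 0 past each test and 1 to 1 expressed). With no replicate block, the nostril difference of TC553353 was 0.08 and the count past 1% was 0. Over the alternatives its adjusted p ran from 0.0657 to 0.538 between the sexes, from 0.122 to 0.826 among rats and from 0.716 to 1 between nostrils.

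Further alternatives were chosen after seeing the data. With a positive and significant signal as the call, male 1 nostril A detected 27 V2R-type probes and the other arrays 8 to 17, and with all spots kept the numbers were 14 and 3 to 7. Without male 1, the V2R-type probes detected at least once fell from 20 to 12, and the count of other vomeronasal-type receptor probes past 1% among rats fell from 1 to 0, while it stayed at 1 with slide as a block. The number of vomeronasal receptor probes detected on no array, 15 as reported, was 17 without male 1, 14 with all spots kept and 5 with a positive and significant signal as the call.

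Signals near background limit these results. A probe with a signal under 10.01 to 14.5 units is not called well above background, so that call would have missed a low level in 15 of the 20 receptors. With the looser flag for a positive and significant signal, 5 of the 20 had no call on any array. The arrays cannot say how many cells made a signal.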
